A study of Mus musculus with 4 samples.

Results

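Protein-coding genes without introns were examined for trimethylation of histone H3 at lysine 36 (H3K36me3) in mouse spermatocytes. The 1194 genes described here are autosomal protein-coding genes of the GENCODE mm9 annotation in which every transcript has 1 exon, and they were chosen from 21418 autosomal protein-coding genes. Of 2733 such genes, 1201 were set aside by name and 338 because they overlap another protein-coding gene. The names were the common ones of olfactory, vomeronasal and taste receptor genes and of the large histone clusters. Genes of these families under other names were kept. The rule of choice uses the annotation only and no value of the experiment, but it was set with earlier results of these data known. Of the members, 715 carry a clone or predicted name and 479 a gene name. Their median length was 1005.5 bp, with a range of 54 to 7569 bp, and their median coding length was 567 bp.

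ChIP-seq with an antibody against H3K36me3 was performed on germ cells at 14 dpp from the strains B6 and KI, labelled as spermatocytes. B6 is C57BL/6J. KI is B6.Cg-Prdm9<tm1.1Kpgn>/Kpgn, a knock-in on the same background whose Prdm9 carries the zinc finger array of the CAST/EiJ allele Prdm9Cst, so both groups share the B6 genome apart from that exon. The authors merged 2 biological replicates per strain before calling peaks against 1 input per strain, and the inputs are labelled 15 dpp. The label of the antibody reads H3K36me6, while the study's methods name H3K36me3. Each strain therefore has 1 broad list and 1 refined list of regions, without read numbers or scores, and neither a replicate error nor a test between the strains can be had. The depth behind a region is unknown. Of the markers of spermatocytes with a match by name, 7 of 7 were at least 50% inside broad regions in both strains, as were 3 of 3 germ cell markers. Of 5 Sertoli cell markers 1 reached that level in B6 (range 5.19% to 71.7% of the gene) and 0 in KI (0% to 8.49%). Among 4 Leydig cell markers 1 reached it in each strain, and of 3 markers of blood and endothelium 0 did, with at most 3.11% of the gene in B6 and 4.66% in KI.

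H3K36me3 is laid down over transcribed gene bodies by SETD2, which travels with elongating RNA polymerase II, and the mark usually builds up toward the 3′ end of a gene. It has been linked to splicing and to exons, so genes without introns are a special case. PRDM9, the zinc finger protein that sets the sites of meiotic recombination, also trimethylates H3K36 at its binding sites. Many intronless genes arose by retrocopying of spliced mRNAs, and a number of retrocopies serve the male germ line, while others belong to tandem families of receptors, cytokines or structural proteins used in other tissues.

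The refined peaks are the narrow peaks that the peak caller placed within broad regions, and 5 that lie in coding sequence of members described below are shown. Each is the coding part of the peak, of which the central 300 bases are given where it is longer, on mm9 and in the direction of the gene. Capitals mark the bases that lie in refined peaks of both strains.
Ttc30a1 (KI peak, chr2:75817860-75818075, minus strand): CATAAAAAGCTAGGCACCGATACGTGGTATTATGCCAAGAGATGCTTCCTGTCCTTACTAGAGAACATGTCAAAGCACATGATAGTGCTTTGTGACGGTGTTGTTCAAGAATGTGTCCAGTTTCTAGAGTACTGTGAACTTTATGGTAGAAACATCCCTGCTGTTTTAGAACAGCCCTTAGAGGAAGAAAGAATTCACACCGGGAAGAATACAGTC
Hps6 (KI peak, chr19:46080361-46080530, plus strand): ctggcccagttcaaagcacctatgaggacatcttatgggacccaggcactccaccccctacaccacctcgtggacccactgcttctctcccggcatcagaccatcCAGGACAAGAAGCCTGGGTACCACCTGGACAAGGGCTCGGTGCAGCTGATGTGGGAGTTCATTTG
Ranbp6 (KI peak, chr19:29884625-29884924, minus strand): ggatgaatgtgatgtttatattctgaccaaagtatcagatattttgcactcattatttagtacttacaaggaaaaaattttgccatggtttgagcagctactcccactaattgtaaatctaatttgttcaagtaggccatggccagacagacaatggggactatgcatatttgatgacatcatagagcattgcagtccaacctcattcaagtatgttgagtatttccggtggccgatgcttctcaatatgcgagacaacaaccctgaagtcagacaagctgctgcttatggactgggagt
D1Pas1 (KI peak, chr1:188793128-188793427, plus strand): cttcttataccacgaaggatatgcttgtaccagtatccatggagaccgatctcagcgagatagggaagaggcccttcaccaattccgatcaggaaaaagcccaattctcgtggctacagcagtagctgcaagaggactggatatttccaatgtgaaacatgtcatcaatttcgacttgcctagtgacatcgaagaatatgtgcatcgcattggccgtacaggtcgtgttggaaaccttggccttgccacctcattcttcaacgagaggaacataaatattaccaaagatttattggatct
Ubqlnl (B6 peak, chr7:111297271-111297500, minus strand): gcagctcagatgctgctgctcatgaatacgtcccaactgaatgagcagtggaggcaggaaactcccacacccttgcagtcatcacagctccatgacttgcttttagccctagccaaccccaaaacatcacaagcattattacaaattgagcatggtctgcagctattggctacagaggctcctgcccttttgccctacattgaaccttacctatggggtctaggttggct
In Ttc30a1, an intraflagellar transport gene, the whole KI peak of 216 bp lay inside the B6 peak. In Hps6, a subunit of a lysosome-related organelle complex, 65 of the 170 coding bases shown were shared. The stretches of Ranbp6, an importin relative, and D1Pas1, a testis retrocopy of the helicase Ddx3x, were in a KI peak only although both genes also held a B6 peak. Ubqlnl, a ubiquilin-like gene, had a refined peak in B6 and none in KI. The GC content of the 5 stretches ranged from 40.3% to 58.2%.

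A gene was called covered when at least 50% of its length lay in broad regions. In B6, 128 of the 1194 members were covered, which is 10.7% (Wilson 95% interval 9.09% to 12.6%), whereas 43.2% of all 21418 autosomal protein-coding genes were. In KI, 146 were covered, which is 12.2% (10.5% to 14.2%), whereas 41.6% of all genes were. These intervals cover the number of genes only and not the variation between animals. Coverage was mostly all or none. No broad region was narrower than 2000 bp and the median length of members was 1005.5 bp. A region that met a short member could therefore easily span it whole, so this pattern is partly set by the width of the regions. Of the 1194 members, 991 had no base in a broad region of either strain, and the median coverage of the covered members was 100% in both strains. Only 28 members in B6 and 29 in KI were touched by a broad region without reaching 50%. The members nearest to the limit had 47.7% and 50.4% of their length in broad regions in B6, and 47.7% and 50.6% in KI. Broad regions held 13.2% of the members' bases in B6 and 14.8% in KI, and 17.2% and 16.5% of all autosomal bases.

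Members are short, so they were compared with multi-exon genes that passed the same exclusions, given the length distribution of the members in bins of 0.5 log2 units. Of 14469 such genes 3621 fell into those bins. Weighted in this way, 15.3% ± 1.39 (SE over genes) of the multi-exon genes were covered in B6 and 16.6% ± 1.57 in KI, and the difference of single-exon minus multi-exon genes was -4.59 percentage points in B6 (95% interval -7.83 to -1.35) and -4.33 points in KI (-7.93 to -0.732). With at least 90% of the gene length as the limit, the difference was -1.06 points in B6 (-3.96 to 1.85) and -1.75 points in KI (-4.75 to 1.26), and both intervals held 0. Multi-exon genes of all lengths were covered in 46.4% of cases in B6 and 44.4% in KI, so the gap was far smaller at matched lengths. The bins under 500 bp held few multi-exon genes, 34 in all. Among genes of 1000 bp or more, 14.0% of the members and 23.9% of the multi-exon genes were covered in B6, and 16.0% and 24.4% in KI.

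The difference was not the same at all lengths. Between 2000 and 2999 bp, 22 of 149 members were covered in B6 (14.8%, interval 9.96% to 21.3%) against 151 of 488 multi-exon genes (30.9%, 27.0% to 35.2%). In KI, 24 of 149 members of that length (16.1%, 11.1% to 22.8%) and 161 of 488 multi-exon genes (33.0%, 28.97% to 37.3%) were covered. From 3000 bp to below 4000 bp the shares in B6 were 16.7% of 78 members (10.01% to 26.5%) and 33.3% of 538 multi-exon genes (29.4% to 37.4%). In both of these classes the B6 intervals of single-exon and multi-exon genes were apart. In KI the intervals of the longer class met, with 21.8% of members (14.1% to 32.2%) and 34.0% of multi-exon genes (30.1% to 38.1%). Below 2000 bp the intervals overlapped in every length class and both strains. Of the 39 members of 4000 bp or more, 11 were covered in each strain, a share of 28.2% (16.5% to 43.8%) beside 38.8% of the multi-exon genes in B6 and 39.3% in KI.

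**Figure D1:**
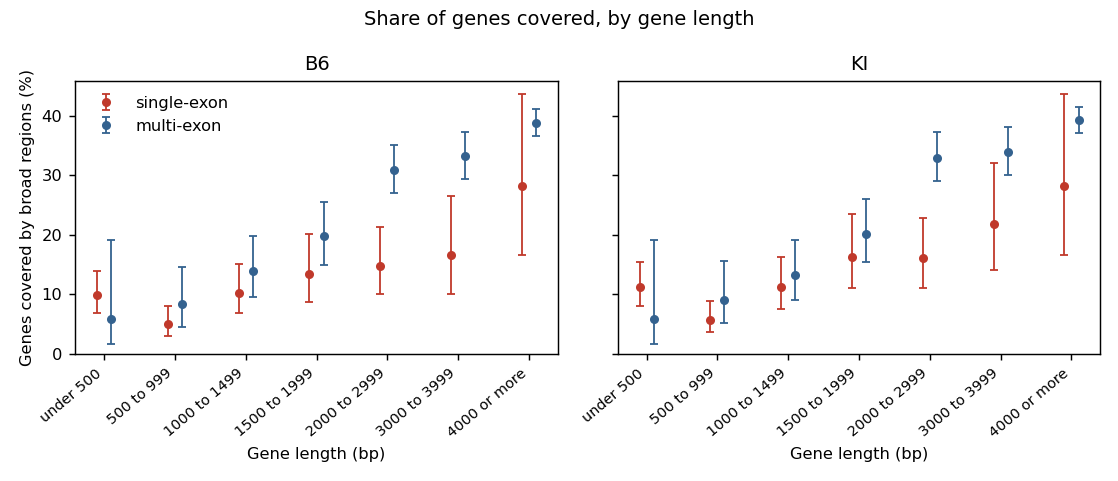
Share of genes covered to 50% or more by broad H3K36me3 regions (y axis, percent) by gene length class (x axis, bp), for B6 on the left and KI on the right. Points are single-exon genes in red and multi-exon genes in blue with Wilson 95% intervals over genes, and the single-exon share lies below the multi-exon share in every class from 500 bp up in both strains, with 14.8% against 30.9% at 2000 to 2999 bp in B6.

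Within a fixed range of length the share of covered genes was higher with more exons. Among genes of 2048 to 8191 bp, weighted to the lengths of the members, 17.1% of the 257 single-exon genes were covered in B6 (interval 13.01% to 22.2%). The share was 21.5% for genes with 2 exons (17.0% to 26.1%), 27.2% for 3 exons (22.4% to 32.0%), 35.4% for 4 to 5 exons (30.1% to 40.7%), 47.4% for 6 to 10 exons (40.4% to 54.4%) and 60.1% for more (44.5% to 75.6%). In KI the same classes gave 18.7%, 21.1%, 31.2%, 36.6%, 48.6% and 63.9%. The intervals of single-exon genes and of genes with 2 exons overlapped in both strains, so the step from 1 to 2 exons was not larger than the error over genes. Matched on the length of the longest transcript in place of the gene, single-exon genes were at 10.7% and multi-exon genes at 31.2% in B6, and at 12.2% and 30.7% in KI. Transcript length leaves out introns, so gene length was not matched here and this wider gap includes its effect.

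**Figure D2:**
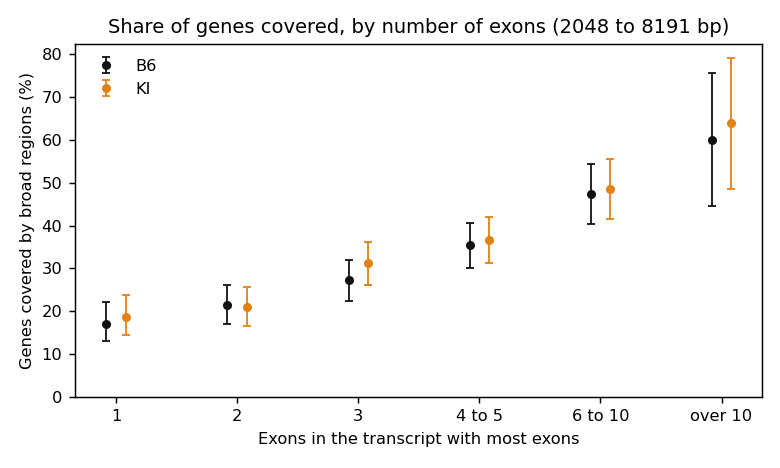
Share of genes of 2048 to 8191 bp covered by broad regions (y axis, percent) by the number of exons in the transcript with most exons (x axis), weighted to the lengths of the single-exon genes. Black points are B6 and orange points KI with 95% intervals over genes, and the share goes from 17.1% with 1 exon to 60.1% above 10 exons in B6.

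Single-exon genes lay farther from other genes than the multi-exon genes of their lengths, with a median distance of 12.8 kb to the nearest protein-coding gene against 5.90 kb before weighting. Coverage was lower at larger distances. Of the 135 members within 1 kb of another protein-coding gene, 32 were covered in B6 (23.7%, interval 17.3% to 31.5%) and 41 in KI (30.4%, 23.2% to 38.6%), while the length-weighted shares of multi-exon genes were 46.2% ± 4.67 and 52.9% ± 3.03 (SE). At 5 to 20 kb the order was the other way, with 11.3% of 320 members in B6 (8.24% to 15.2%) and 11.9% in KI (8.78% to 15.9%) beside 4.73% ± 0.567 and 5.60% ± 0.605 of multi-exon genes. Beyond 100 kb 3 of 159 members were covered in B6 and 7 in KI. With genes of all lengths at more than 5000 bp from any other protein-coding gene, 7.30% of members and 4.70% of multi-exon genes were covered in B6, and 8.39% and 5.27% in KI, which turned the direction of the difference. No interval is given for this turned difference, and its weighting leans on length bins under 500 bp that hold few multi-exon genes. Among genes of 1000 bp or more at that distance the shares were 9.16% and 9.43% in B6 and 10.6% and 10.6% in KI. Among genes of 1000 bp or more with a neighbour within 5000 bp they were 23.6% and 40.9% in B6 and 26.6% and 40.7% in KI. The difference at 1000 bp or more was thus -17.2 points in B6 and -14.1 points in KI for genes with a close neighbour, and -0.27 and 0.0634 points for isolated genes. No test between these classes was made.

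**Figure D3:**
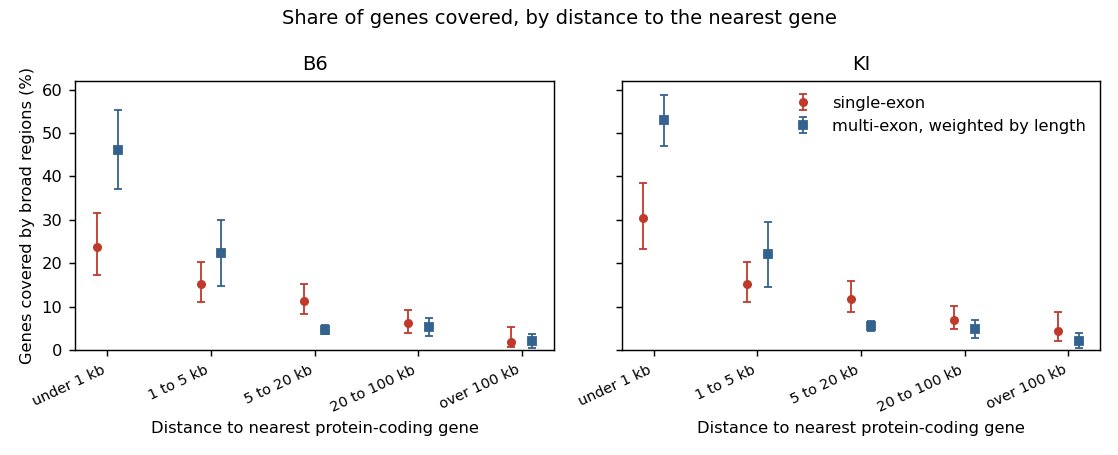
Share of genes covered by broad regions (y axis, percent) by distance to the nearest protein-coding gene (x axis), B6 on the left and KI on the right. Red circles are single-exon genes with Wilson 95% intervals and blue squares multi-exon genes weighted by length with 95% intervals, and red lies below blue under 5 kb and above it at 5 to 20 kb, with 11.3% against 4.73% in B6.

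The state of the neighbour went with that of the member. When the nearest protein-coding gene was covered, 91 of 401 members were covered in B6 (22.7%, interval 18.9% to 27.0%) and 97 of 384 in KI (25.3%, 21.2% to 29.8%). When it was not, 37 of 793 were covered in B6 (4.67%, 3.40% to 6.36%) and 49 of 810 in KI (6.05%, 4.61% to 7.91%). Length-weighted multi-exon genes showed the same contrast, with 34.4% and 5.58% in B6 and 39.6% and 4.78% in KI. More than 50% of the covered members nonetheless had a region without another protein-coding gene, called a region of their own below. Genes of other types were not considered. Such a region can be far wider than the member, as with 36 kb over the 1472 bp of Rbmxl2 in both strains. Of the covered members, 68 of 128 in B6 and 86 of 146 in KI lay in a broad region that met no other protein-coding gene, a share of 53.1% and 58.9%. Among covered multi-exon genes the shares were 56.9% and 59.5% without weighting and 33.5% and 36.7% weighted to the members' lengths, where short bins hold few covered multi-exon genes, so the order of members and multi-exon genes depended on the weighting. These regions had a median width of 6 kb in B6 and 4.5 kb in KI, whereas regions shared with another gene had a median width of 25.75 kb and 21 kb. Whether a gene lies in the region of a longer neighbour or carries its own therefore differs between members and cannot be read from coverage alone. Of the 1194 members, 785 (65.7%) had no broad region of either strain within 5 kb, beside a length-weighted 58.6% of multi-exon genes.

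Broad regions started inside the gene and ran past its end. Among the covered members of 1000 bp or more in a region of their own, the region began downstream of the annotated start in 36 of 47 genes in B6, at a median of 520 bp (quartiles 403 and 846 bp), and in 39 of 58 genes in KI, at a median of 665 bp (427 and 916 bp). It ran beyond the annotated end in 45 of 47 genes in B6, by a median of 3222 bp, and in 52 of 58 in KI, by a median of 2353.5 bp. Nearly all edges of the broad regions are multiples of 500 bp, which limits the precision of these distances. The middle of the first 10% of the gene was inside a broad region for 31.9% of these members in B6 and 36.2% in KI, and the middle of the last 10% for 95.7% and 91.4%. Covered multi-exon genes of the same range of length that lay in a region of their own, not weighted by length, had 25.9% and 27.5% at the first place and 94.1% and 92.3% at the last. In members whose region also met another gene the first place was covered more often, in 76.3% of 38 genes in B6 and 71.8% of 39 in KI, beside 34.7% and 33.8% of multi-exon genes in such regions. Over all covered members of 1000 bp or more the shares at the first place were 51.8% in B6 and 50.5% in KI, beside 29.7% and 30.0% of covered multi-exon genes.

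Untranslated and coding parts followed the same order. In the 66 covered members of 1000 bp or more in B6 with at least 50 bp annotated on both sides of the coding sequence, the median coverage was 8.85% of the 5′ part, 93.3% of the coding part and 100% of the 3′ part. The 5′ part had no base in a broad region in 33 of these genes and lay wholly in broad regions in 28, so its median describes few of them. The 3′ part had no base in a broad region in 0 of them. In KI, 74 genes gave medians of 24.9%, 93.3% and 100%, and the 5′ part had no base in a broad region in 35 and lay wholly inside in 31. The 3′ part lay wholly in a broad region in 59 genes of B6 and 63 genes of KI. Along all members of 2000 bp or more, the share inside a broad region was 6.02% in the first of 10 equal parts of the gene and 19.9% in the last in B6, and 7.14% and 22.6% in KI. It was 17.7% in B6 and 18.05% in KI at 9.75 kb upstream of the start, so the start of the gene was a local minimum. The weighted multi-exon genes gave 12.4% and 36.9% at these places in B6, and 13.5% and 36.3% in KI.

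**Figure D4:**
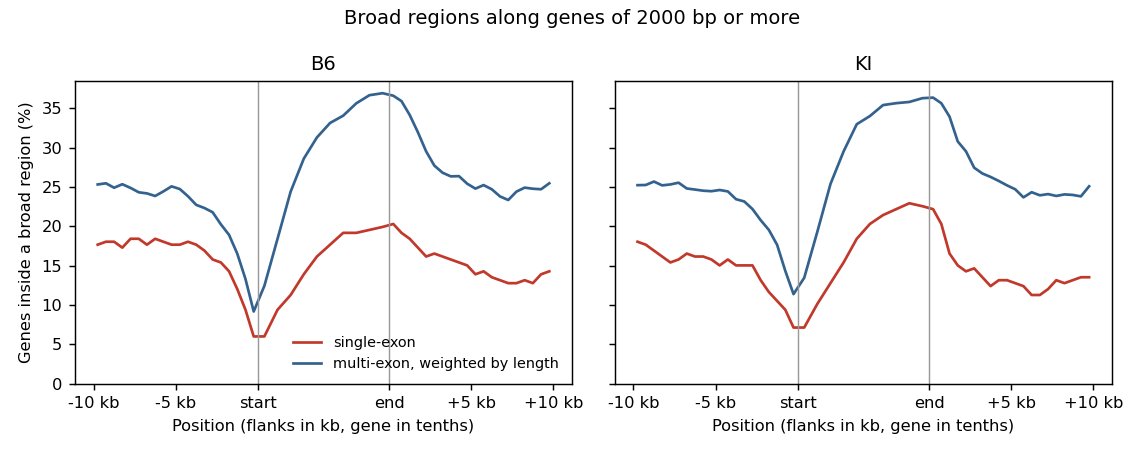
Share of genes of 2000 bp or more that lie inside a broad region at each position (y axis, percent), with 10 kb flanks in steps of 500 bp and the gene scaled to 10 equal parts (x axis), B6 on the left and KI on the right. The red line is single-exon genes (n = 266) and the blue line multi-exon genes weighted by length, and both dip at the gene start and rise along the gene, in B6 from 6.02% to 19.9% for single-exon genes.

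The 8 longest members without a clone name that had at least 90% coverage in both strains had varied roles in the cell. Pigm, a mannosyltransferase of the GPI anchor pathway, is 7569 bp long with 1269 bp of coding sequence (chr1:174306662-174314230, plus strand) and was 95.5% inside broad regions in both strains. Its region of 10.5 kb began 339 bp inside the gene and ended 3270 bp beyond it in B6 and in KI alike. Exoc8, an exocyst subunit, had 91.8% of its 7406 bp in broad regions in B6 and 93.2% in KI, within a region of 33 kb shared with another gene. The regions over Pigm and Exoc8 were thus a member's own in the first case and shared in the second. Zfp518a was 100% covered in both strains, by regions of 27.5 kb in B6 and 26.5 kb in KI whose edges lay at -16482 bp and -15982 bp from the gene start and which met no other protein-coding gene. Ranbp6 had 90.5% coverage in B6 and 100% in KI, Zfp830 95.3% in both, and B3galt6, a galactosyltransferase of glycosaminoglycan linkers, 91.1% in both. D1Pas1, which lies 74.0 kb from the nearest protein-coding gene, was 93.6% covered in both strains by its own regions of 7 kb in B6 and 9 kb in KI. A 3024 bp model named Atf7ip, at 100% in both strains, shares its symbol with the multi-exon gene 451 bp away and lay in regions of 95 kb and 59.5 kb that met it.

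At the other end were long members with no broad region of either strain within 5 kb. The 8 longest without a clone name included Pcdhb19 (7131 bp), Pcdhb16 (5268 bp) and Pcdhb21 (4662 bp), neuronal cell adhesion genes of the beta protocadherin cluster. Tmem229a (5157 bp), Zfp353 (5107 bp), the potassium channel subunit gene Kcnf1 (4787 bp), the imprinted gene Magel2 (4662 bp) and the endothelial lectin gene Clec14a (4539 bp) were the other five. In Zfp353 81.0% of 100-base stretches occur once in the genome, and in the other 7 genes at least 99.8% do. Reads without a unique position had been discarded by the authors, so the uniqueness of the sequence bears on what could be called in a gene.

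Several families used in other tissues had no covered member, beside 10.7% in B6 and 12.2% in KI over all members. Of 40 keratin-associated protein genes, the cysteine-rich proteins of hair, 0 were covered in either strain, which allows a share of up to 7.5% by a limit of 3 counts. Likewise 0 of 15 type I interferon genes (limit 20%), 0 of 18 beta protocadherin genes (16.7%), 0 of 12 trace amine receptor genes (25%), 0 of 7 Mas-related receptor genes (42.9%) and 0 of 9 forkhead factor genes (33.3%) were covered. Apart from the keratin-associated genes, these limits lie above the share over all members. The counts of those families therefore do not set them apart from it. The keratin-associated genes are short, with a median length of 760 bp. Among members of 500 bp to below 1000 bp, 4.97% were covered in B6 and 5.63% in KI. The limit of 7.5% lies above both shares, so it does not set this family apart from members of similar length. No base of a broad region touched the interferon, protocadherin, Mas-related receptor or forkhead genes in either strain. All 18 beta protocadherin genes, with a median length of 3472 bp, had no broad region within 5 kb. Among members of 3000 bp to below 4000 bp, 16.7% were covered in B6 and 21.8% in KI, and the protocadherin limit of 16.7% is not above these shares. The limit treats genes as independent, which neighbours in the same cluster may not be, so no difference is drawn from it. Krtap4-7 was touched in B6 (7.67% of its length), and Taar3 (16.2%) and Taar8c (31.7%) in KI. Of 6 potassium channel genes and 4 leucine-rich repeat membrane protein genes 0 were covered in either strain. Apart from these families of other tissues, 0 of 3 ADAM genes (Adam30, Adam6a and Adam6b) were covered in either strain.

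The lists of further transcription factors and of other receptors held few covered members in B6, beside 10.7% in B6 and 12.2% in KI over all members. Among the 19 further transcription factor genes listed, 0 were covered in B6 and 1 in KI. The covered gene was Ier5, an immediate early gene with 45.99% of its length in broad regions in B6 and 76.5% in KI. The list does not hold every transcription factor gene. Thap11, which is outside it, was covered in both strains by a region that began 498 bp inside its 1848 bp. Of 35 other G protein-coupled receptor genes 2 were covered in B6 (5.71%) and 5 in KI (14.3%). Gpbar1, a bile acid receptor, and Gpr151 were 100% covered in both strains. Gpbar1 lies 222 bp from its neighbour Aamp, and its region met another gene. The other three, Bdkrb1 (52.3%), Drd5 (73.1%) and Gpr15 (100%), were covered in KI and at 0 in B6.

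Retrocopies with a role in the germ line were divided. Of 12 such genes on the list, which does not hold D1Pas1, 3 were covered in B6 and 4 in KI. Rpl10l, a retrocopy of the X-linked ribosomal protein gene Rpl10, was 100% covered in both strains by regions of 6.5 kb and 5.5 kb at 186 kb from the nearest protein-coding gene. Tktl2, a transketolase-like gene, was 82.2% covered in B6 and 100% in KI, and Rbmxl2, a retrocopy of the RNA-binding protein gene Rbmx, 63.2% in both. These genes were covered in both strains, and each was overlapped by 1 refined peak in B6 and none in KI. The peaks of Tktl2 and Rbmxl2 had their midpoints beyond the gene end, at 147% and 122% of the gene length.

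The other 9 genes of the list did not reach the limit in both strains. Pabpc6, a poly(A)-binding protein gene, was 82.3% covered in KI and at 0 in B6. Pdha2, the testis form of a pyruvate dehydrogenase subunit, had 43.9% in B6 with 2 refined peaks and 0 in KI, and Ubl4b 35.7% in KI and 0 in B6. Pgk2, the testis phosphoglycerate kinase, had no base in a broad region in either strain, and neither had Gk2, Gykl1, Prps1l1, Zfa or Pabpc2. In Zfa 90.4% of 100-base stretches are unique, and in the other five all are.

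Among 9 genes of testis kinases and sperm proteins, 2 were covered in both strains. Tssk2, a testis-specific kinase gene, was 100% covered in both, whereas its neighbouring paralogue Tssk1 had no base in a broad region although such a region lay within 5 kb in each strain. Actl7a, an actin-like sperm protein gene, was 100% covered within a region of 58.5 kb in B6 and 58 kb in KI that met another gene, and Kif2b and Actrt2 were at 0 in both. Of 5 histone genes outside the large clusters, H2afx, the histone variant phosphorylated at DNA breaks, was 100% covered in both strains within a region of 16 kb that met 2 other genes, and H2afj had 5.20% in B6 and 32.6% in KI. H1fnt, H2afb1 and Hist4h4 were at 0. Hspb9, a small heat shock protein gene of the testis, was 100% covered in both strains 433 bp from Rab5c, while Hspb3 and Dnajb8 were at 0. Of 5 zinc finger genes of Zfp name, Zfp518a, Zfp830 and Zfp850 were covered in both strains and Zfp353 and Zfp648 were at 0.

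Ribosomal protein genes without introns were mostly processed copies with a median length of 483 bp and a median of 76.7% unique stretches. Of 47 such genes 4 were covered in each strain and 3 in both, Rpl10l, Rpl21-ps12 and Rps6-ps1. Of the 715 members with clone or predicted names 62 were covered in B6 (8.67%) and 74 in KI (10.3%). The 232 members in none of the lists held 51 covered genes in B6 (21.98%) and 52 in KI (22.4%). Their median length was 1619.5 bp against 1005.5 bp over all members. Longer members were mostly covered more often, and these shares were not matched by length.

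**Figure D5:**
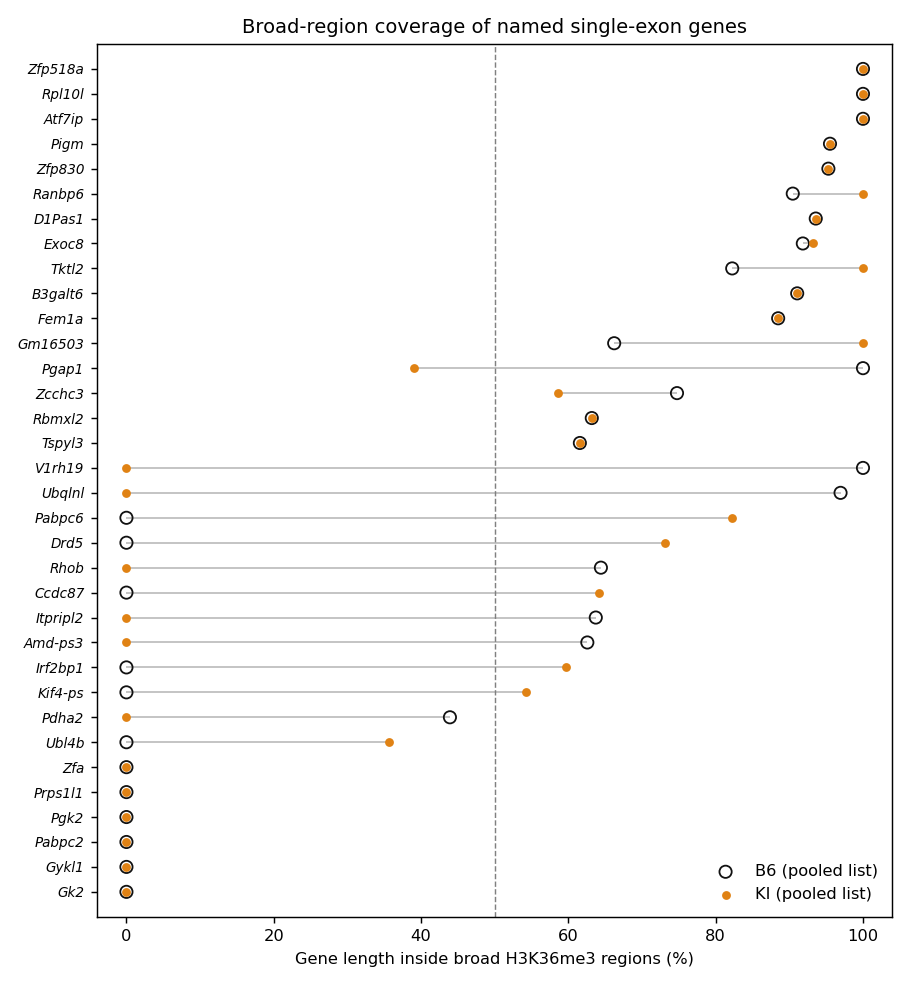
Percent of gene length inside broad regions (x axis) for named single-exon genes (y axis), including all 12 germline retrocopies, with B6 as open circles and KI as orange points from 1 pooled list each and a dashed line at 50%. Genes such as Zfp518a and Pigm have the same value in both strains, while Ubqlnl and Rhob are at 0 in KI and Drd5 and Pabpc6 at 0 in B6.

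Of the 166 members covered in either strain, 108 were covered in both, a share of 65.1% beside a length-weighted 77.1% of multi-exon genes. All autosomal genes were covered in both strains in 40.2% of cases, in B6 only in 3.06% and in KI only in 1.39%. Among members, 9.05% were covered in both, 20 (1.68%) in B6 only and 38 (3.18%) in KI only. Length-weighted multi-exon genes had the same order as the members, with 1.44% covered in B6 only and 2.69% in KI only. With at least 50% in one strain and 0 in the other the counts were 16 and 30. In 86 of the 108 members covered in both strains the coverage was identical. The minimum width of 2000 bp and the 500 bp steps of the broad regions limit what identical coverage can show.

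Regions over strain-only members were narrow. Their median width was 4.25 kb for B6-only members and 3.25 kb for KI-only members, while the members covered in both strains lay in regions with a median of 14.5 kb in B6 and 11.75 kb in KI. The region met no other protein-coding gene for 15 of 20 B6-only and 31 of 38 KI-only members, against 53 and 55 of the 108 covered in both. A refined peak of the same strain lay in 7 of the 20 B6-only members and 17 of the 38 KI-only members, and one of the other strain in 2 and 1. Of the markers of Sertoli cells above, Sox9 (45.2%), Wt1 (71.7%) and Amh (42.0%) also had higher coverage in B6 than in KI (0%, 8.49% and 0.333%), and their part in the strain difference was not tested. By the study's methods the merged KI reads also outnumbered those of B6, and the strain and the depth cannot be told apart in these lists.

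Among the longest B6-only members with no coverage in KI were Ubqlnl at 96.95% of 2298 bp and Rhob, a small GTPase gene, at 64.4% of 2223 bp, each in a region of 2.5 kb with 1 refined peak. Itpripl2 had 63.7% of a 1370 bp model that shares its symbol with a gene 3243 bp away. Amd-ps3 (62.6%), in which 10.4% of stretches are unique, and V1rh19 (100%), a vomeronasal receptor gene that the exclusion by name kept, held no refined peak. The longest KI-only members at 0 in B6 were Kif4-ps (54.3% of 3669 bp), Pabpc6, Ccdc87 (64.1% of 3163 bp), Drd5 (73.1% of 2802 bp) and Irf2bp1, a corepressor gene (59.7% of 2697 bp). All 5 held 1 refined KI peak, and their regions were 2 to 3.5 kb wide. Drd5 encodes a dopamine receptor, and its region covered the 3′ side of the gene from 753 bp after the start to 451 bp beyond the end.

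Refined peaks were less frequent in members than in multi-exon genes of the same lengths. At least 1 overlapped 50 members in B6 (4.19%, interval 3.19% to 5.48%) and 61 in KI (5.11%, 3.998% to 6.51%), against 52.6% and 55% of all autosomal genes, most of which are far longer. The length-weighted shares of multi-exon genes were 7.61% ± 0.924 and 7.99% ± 0.607 (SE). Per length, members held 23.8 peak midpoints per Mb in B6 and 30.6 in KI, and multi-exon genes 36.7 and 42.6. Among covered genes alone the difference was within its error. A refined peak lay in 46 of 128 covered members in B6 (35.9%, 28.1% to 44.5%) and in 55 of 146 in KI (37.7%, 30.2% to 45.8%), beside 44.4% ± 4.23 and 45.2% ± 3.24 of covered multi-exon genes.

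Within members the peaks lay toward the 3′ end. Of the peaks whose midpoint was inside a member, 26 of 39 in B6 and 32 of 50 in KI were in the 3′ untranslated part, 10 and 17 in coding sequence and 3 and 1 in the 5′ untranslated part. The median position of the midpoints was 71.0% of the gene length from the start in B6 and 71.9% in KI in members of 1000 bp or more. With these genes divided into 3 equal parts from start to end, 8, 7 and 20 midpoints lay in the parts in B6, and 2, 20 and 25 in KI. Refined peaks were placed within broad regions, which themselves covered gene ends more often than gene starts. The share of bases that is 3′ untranslated is not given, and multi-exon genes were not compared. The position of the peaks is therefore no result apart from that of the broad regions.

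Peaks of both strains occurred in 31 members, and in 17 of them a B6 and a KI peak overlapped inside the gene, by a median of 216 bp (17 to 515 bp). In Pigm the B6 peak (chr1:174308699-174309194) and the KI peak (chr1:174308445-174309154) shared 456 bp. In Fem1a, a substrate receptor of a ubiquitin ligase, a KI peak of 398 bp lay inside a B6 peak of 2428 bp, and the shared bases numbered 292 in Zcchc3 and 308 in Tspyl3. B3galt6 had 19 shared bases. Ranbp6 held 1 B6 and 2 KI peaks without overlap, as the lower case of its sequence shows. The model named Pgap1, which shares its symbol with a multi-exon gene 4739 bp away, held 3 B6 peaks and 1 KI peak, with coverage of 100% in B6 and 39.0% in KI, and Gm16503 held 2 peaks in each strain.

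Members varied in how far their sequence occurs once in the genome. In 792 of 1182 members with a value (67.0%) at least 90% of 100-base stretches occur once in the genome, against a length-weighted 76.7% of multi-exon genes. Of the 221 members with less than 50% unique stretches 7 were covered in B6 (3.17%) and 4 in KI (1.81%), and of the 792 with at least 90% 103 (13.01%) and 128 (16.2%). Length-weighted multi-exon genes of the highest class were at 19.9% ± 1.74 in B6 and 20.6% ± 1.76 in KI (SE). Members covered in KI only had at least 90% unique stretches in 36 of 38 cases, and those covered in B6 only in 11 of 19. The GC content had a median of 48.6% in members covered in both strains and 50.9% in members covered in neither. The ratio of observed to expected CpG had medians of 0.357 and 0.369. By classes of that ratio the covered share of members of 1000 bp or more lay between 7.24% and 19.8% in B6 and showed no steady order.

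Some members are fragments in the annotation. Of the 1194 members 29 share their symbol with another protein-coding gene and are 1-exon models that do not overlap the gene of that name. Of these 12 (41.4%) were covered in both strains, beside 96 of the other 1165 (8.24%). Without them the share covered was 9.79% in B6 and 11.4% in KI.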

How the data were processed

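Members and lists were chosen with earlier results of these data known. The deposited files give coordinates only (chromosome, start and end on mm9), with no counts or scores. According to the methods, the authors aligned the reads with BWA 1.2.3, discarded those without a unique position, pooled the 2 replicates of a strain and used ZINBA with the input as control for broad and refined regions. The inputs themselves were not used here. Genes came from GENCODE vM1, and sequences from the mm9 genome. Touching or overlapping broad regions were merged, and coverage was computed as the share of a gene's length in them with numpy 2.4.6 and pandas 2.3.3, tested on simulated data. Multi-exon genes were weighted to the members' lengths in bins of 0.5 log2 units, with an SE over genes. Intervals are Wilson 95% intervals, and no p-value was computed. Uniqueness is the share of 100-base stretches found once in the genome.

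Named genes are the longest members covered 90% in both strains, without a region within 5000 bp, covered in 1 strain only, or with overlapping peaks, those with most peaks, and members of 19 lists by gene symbol. Clone names were passed over in the rules by length. Hps6, Ttc30a1, Krtap4-7, Taar3, Taar8c, Ier5, Thap11, Bdkrb1, Gpr15 and members of lists named beyond those rules were added after their values were seen. The classes of distance, uniqueness and CpG, the range of 2048 to 8191 bp for exon numbers and the profile of genes from 2000 bp were also chosen after seeing the data. A comparison of regions over the starts and ends of multi-exon genes with and without another gene was added likewise. No Kelch-like gene was a member.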

Additional observations from a re-analysis of the deposited data

How the results depend on the processing

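With 1 merged list per strain, no replicate could be left out. No paired analysis was possible because the replicates were merged before peaks were called. The difference of single-exon minus multi-exon genes (-4.59 points in B6, -4.33 in KI) turned positive with no other protein-coding gene within 5000 bp, at 2.60 in B6 and 3.13 in KI. No interval is given for these 2 values. The following joint settings and the weighting by distance were chosen after seeing the data. With that distance, the difference was -0.27 and 0.0634 for genes of 1000 bp or more, -0.544 and 0.159 without clone names, and 2.05 and 3.96 with at least 90% unique stretches. For genes of 1000 bp or more within 5000 bp of another gene it was -17.2 and -14.1. It was -9.87 and -8.41 with all genes of 1000 bp or more, -20.4 and -18.5 by transcript length, and -14.2 and -12.96 against length-matched multi-exon genes without the exclusions. At 90% coverage it was -1.06 and -1.75, with intervals that held 0, and without clone names -8.33 and -7.50. Weighted also by distance it was -1.73 and -1.10.

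The share covered in B6 and KI was 13.1% and 14.7% with any overlap, 6.95% and 7.12% at 90% coverage, 14.0% and 16.0% for genes of 1000 bp or more, 13.8% and 15.0% without clone names, 7.30% and 8.39% for isolated genes and 13.01% and 16.2% for genes of unique sequence. The share with a refined peak was 3.02% and 3.94% by midpoint, 2.93% and 3.94% with 50% of the peak inside, 5.53% and 7.12% with 500 bp added, 6.92% and 8.40% from 1000 bp and 5.56% and 6.82% with unique sequence. Members covered 90% in one strain and under 10% in the other numbered 9 in B6 and 14 in KI. In all, 24 of 66 alternatives stayed within the interval of the reported value. Of the differences listed above, these include 90% coverage and no clone names in KI, and the weighting by distance in both strains. The lists give neither strength nor depth of a region. The SE over genes is likely too small below 500 bp, where the weighted share rests on 34 multi-exon genes.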

Other observations

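Single-exon genes of the sex chromosomes lie outside the comparison above. By the same rules 92 single-exon genes were found on the X chromosome. Of these, 3 were covered in B6 (3.26%, Wilson 95% interval 1.12% to 9.15%), namely Magea4, Gm44 and Ubqln2, and 1 in KI (1.09%, 0.192% to 5.90%), Magea4. Multi-exon genes of the X chromosome of the same lengths were covered in 24.2% of cases in B6 and 12.3% in KI. In 36 of the 92 genes at least 90% of 100-base stretches occur once in the genome. On the Y chromosome 3 single-exon genes were found and 0 were covered in either strain.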
